A study of Arabidopsis thaliana with 10 samples.

Results

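The genes described here are the nuclear genes of Arabidopsis thaliana whose transcript level in the double mutant atbmi1ab_strong stood far above that in every other genotype of the series. They were chosen by their measured level: a mean of at least 5 FPKM (sequenced fragments scaled to gene length and library size) in atbmi1ab_strong, and at least 8 times the largest mean among the other genotypes, with each of those means held at 0.5 FPKM or more. The rule found 81 of 27086 loci. RNA was sequenced from whole seedlings of ecotype Col-0 at 10 days after germination, with 2 libraries for each of 5 genotypes. These were the double mutant of AtBMI1A and AtBMI1B labelled strong (atbmi1ab_strong), the triple mutant of AtBMI1A, AtBMI1B and AtBMI1C (atbmi1abc), the single mutants atbmi1a and atbmi1b, and wild type (WT). The labels give no alleles, no growth conditions and no account of what the word strong marks, and they do not tell separately grown plants from repeat libraries of the same plants.

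The AtBMI1 proteins carry a RING finger and work in Polycomb repressive complex 1, which adds ubiquitin to histone H2A and helps to keep developmental genes silent. Plants without these proteins are known to fail to leave the embryonic programme after germination. Several of the 81 genes belong to the jasmonate pathway, which answers wounding, insects and necrotrophic fungi. Jasmonate is made from linolenic acid in the chloroplast and peroxisome. Its isoleucine conjugate binds the receptor COI1, which leads to the destruction of JAZ repressors and frees MYC transcription factors, and both the synthesis genes and the JAZ genes are themselves switched on by the hormone.

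The libraries had FPKM sums of 792416 to 990295, and the correlation of log2(FPKM + 1) within a genotype was 0.956 to 0.989. The files hold no read counts, so the absolute depth behind a value is unknown, and an exact 0 can be a failed estimate. AtBMI1A was listed at 7.89 and 9.19 FPKM in atbmi1ab_strong, 10.3 and 13.7 in atbmi1abc, 26.8 and 33.4 in atbmi1a, 7.41 and 7.46 in atbmi1b, and 6.91 and 6.08 in WT. Its level was thus not lower than in WT in any library labelled as its mutant, and a value per gene does not show whether a transcript is intact. AtBMI1B was listed at 1.70 and 1.91 FPKM in atbmi1ab_strong, 3.89 and 3.64 in atbmi1abc, 0.182 and 0.108 in atbmi1b, and 6.34 and 5.86 in WT. AtBMI1C was listed at 3.42 and 3.22 FPKM in atbmi1ab_strong, 3.04 and 4.35 in atbmi1abc, at most 0.209 in the single mutants, and 0.136 and 0.0456 in WT, so that its level too went against the label of the triple mutant, standing above WT there. Genotype names below, and the words double and triple mutant, stand for libraries so labelled. The summed level of 8 leaf photosynthesis genes, markers of the green seedling, was 1122 and 1244 FPKM in atbmi1ab_strong and 1432 and 1505 in atbmi1abc, against 44122 and 50799 in WT. The summed level of 18 genes for seed storage proteins and oil bodies was 95038 and 112950 FPKM in atbmi1ab_strong, 121345 and 145320 in atbmi1abc, and 82.58 and 69.96 in WT. The atbmi1a libraries stood apart from each other, with a seed storage sum of 3467 FPKM in replicate 1 and 57.02 in replicate 2. In bulk seedlings, a change in the number of cells of a type and a change in RNA per cell cannot be told apart.

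The level of the 81 genes in atbmi1ab_strong spanned from 5.01 to 1280 FPKM, with a median of 23.1. There were 18 genes from 5 to 10 FPKM, 34 from 10 to 50, 14 from 50 to 100 and 15 at 100 or more. The median over the 81 genes of the genotype mean was 23.1 FPKM in atbmi1ab_strong, 0.603 in atbmi1abc, 1.00 in atbmi1a, 0.615 in atbmi1b and 0.345 in WT. The ratio to the next genotype had a median of 13.6 and a highest value of 154, and 28 genes reached 20 or more. Next to the threshold, AT2G36780, AT5G39580 and RLP6 stood just inside with ratios of 8.30, 8.09 and 8.03, and AT3G05260, AT1G09932 and AT4G15150 stood just outside with 7.91, 7.90 and 7.75. In 79 of the 81 genes both atbmi1ab_strong libraries were above all 8 others, which held for 11.4% of the 19460 loci tested, and the rule itself chose for it. The 2 exceptions, AT3G13240 and AT3G19663, were listed at 0 in replicate 1 and at 59.7 and 12.5 FPKM in replicate 2 of atbmi1ab_strong, and at 0 in every other library. For these uncharacterized genes the choice rests on 1 library. Of the other 79 genes, 71 differed by less than 2-fold between the atbmi1ab_strong libraries, and replicate 1 was the higher in 59 of the 81. The median ratio of replicate 1 to replicate 2 was 1.19 over the 81 genes, beside 0.994 for all tested loci.

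The 81 genes were grouped by hand according to role, and the group names are not words of the annotation. They comprised 6 genes of the jasmonate pathway, 4 further oxygenases, 11 other enzymes of specialised metabolism and 11 immune and peptide genes. There were also 10 transcription factors, 6 redox enzymes, 4 cold and dehydration genes, 7 signalling genes and 9 genes of metabolism and transport. The rest were 7 other annotated proteins and 6 genes with no known product. The median level in atbmi1ab_strong was highest for the jasmonate pathway, 137 FPKM, and the oxygenases, 112 FPKM, and lowest for the 7 other annotated proteins, 8.40 FPKM, and the immune and peptide genes, 9.29 FPKM. These groups were formed after the values had been seen.

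**Figure D1:**
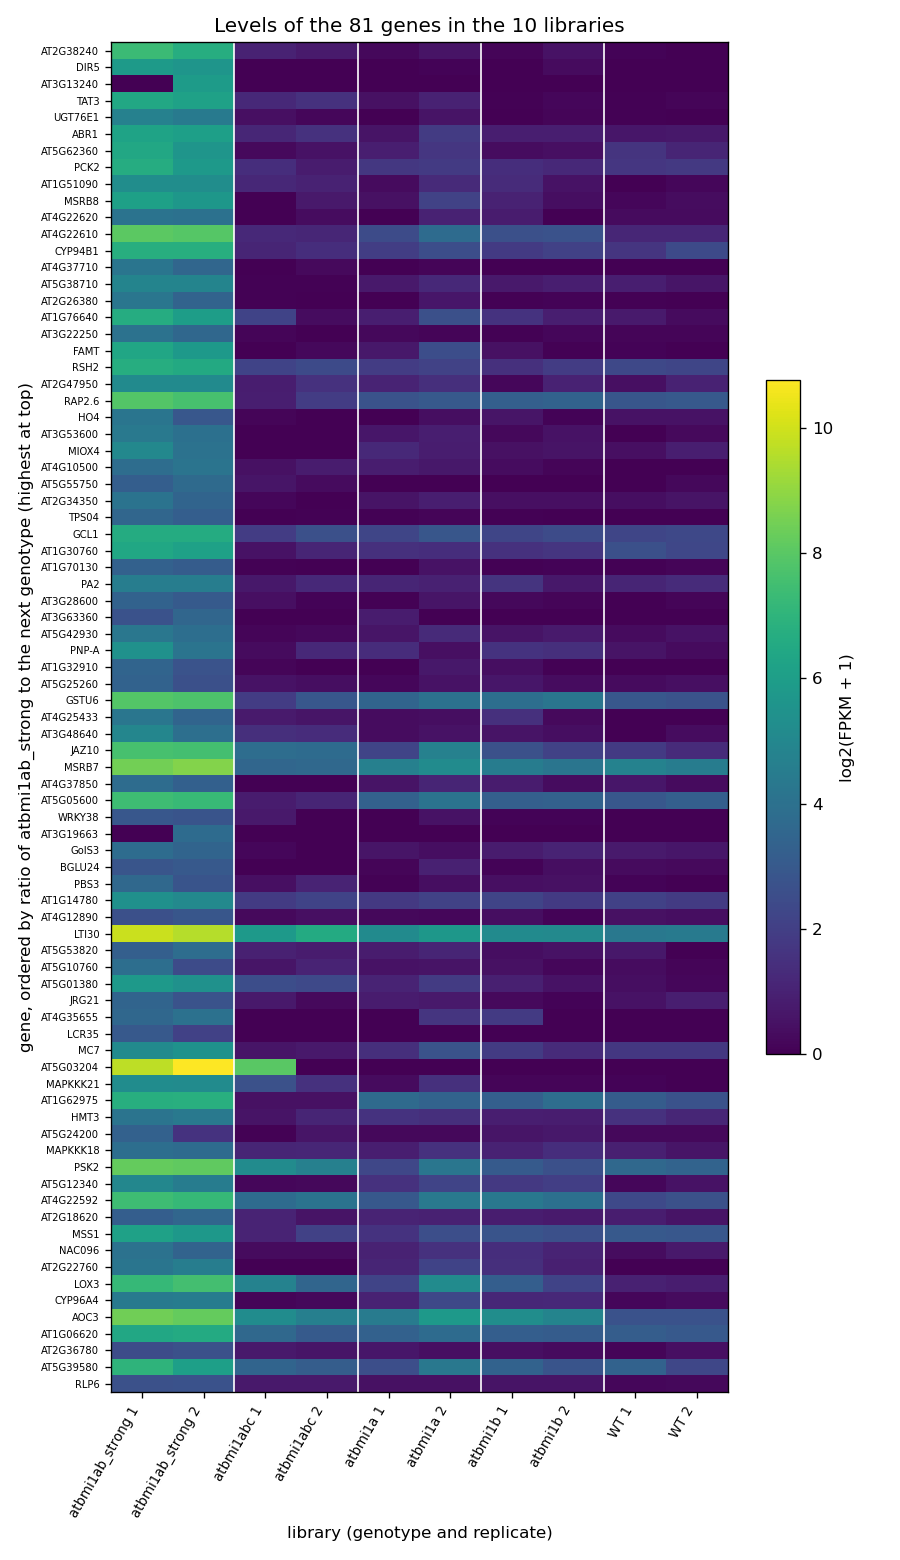
Level of each of the 81 genes, as log2(FPKM + 1), in the 10 libraries, with genes in rows ordered by their ratio to the next genotype and libraries in columns from atbmi1ab_strong on the left to WT on the right. The pair of atbmi1ab_strong columns is high throughout, apart from the genes listed at 0 in replicate 1, and replicate 2 of atbmi1a is the highest of the other libraries for 37 genes.

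Jasmonate synthesis was represented by LOX3 and AOC3. LOX3, a chloroplast lipoxygenase at the start of the pathway, was listed at 148 and 184 FPKM in atbmi1ab_strong, 26.0 and 10.3 in atbmi1abc, 3.62 and 35.8 in atbmi1a, 8.30 and 3.5 in atbmi1b, and 0.973 and 0.823 in WT. AOC3, an allene oxide cyclase that closes the ring of the precursor, was listed at 348 and 299 FPKM in atbmi1ab_strong, 37.0 and 24.3 in atbmi1abc, 21.4 and 55.6 in atbmi1a, 37.7 and 27.6 in atbmi1b, and 5.52 and 5.48 in WT. For both genes all mutant libraries were above both WT libraries. That atbmi1ab_strong was above the rest was required by the rule.

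Signalling and turnover genes of the pathway had the same order at the top. JAZ10, a repressor of jasmonate responses that the hormone induces, was listed at 198 and 187 FPKM in atbmi1ab_strong, 13.4 and 12.6 in atbmi1abc, 3.62 and 25.3 in atbmi1a, 5.31 and 3.33 in atbmi1b, and 2.52 and 1.5 in WT. CYP94B1, a cytochrome P450 that inactivates the isoleucine conjugate by oxidation, was listed at 108 FPKM in both atbmi1ab_strong libraries, 1.18 and 1.66 in atbmi1abc, 2.92 and 4.77 in atbmi1a, 2.58 and 3.19 in atbmi1b, and 2.19 and 4.36 in WT. JAZ10 was thus also above WT in atbmi1abc, whereas CYP94B1 was there below both WT libraries. TAT3, a tyrosine aminotransferase long used as a jasmonate-responsive gene, was listed at 87.4 and 71.2 FPKM in atbmi1ab_strong, 1.36 and 1.94 in atbmi1abc, 0.414 and 1.07 in atbmi1a, 0.0419 and 0.149 in atbmi1b, and 0.0498 and 0.1 in WT. JRG21, named for its regulation by jasmonate, was the lowest of these genes, with 10.0 and 5.71 FPKM in atbmi1ab_strong and at most 0.851 FPKM in any other library.

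**Figure D2:**
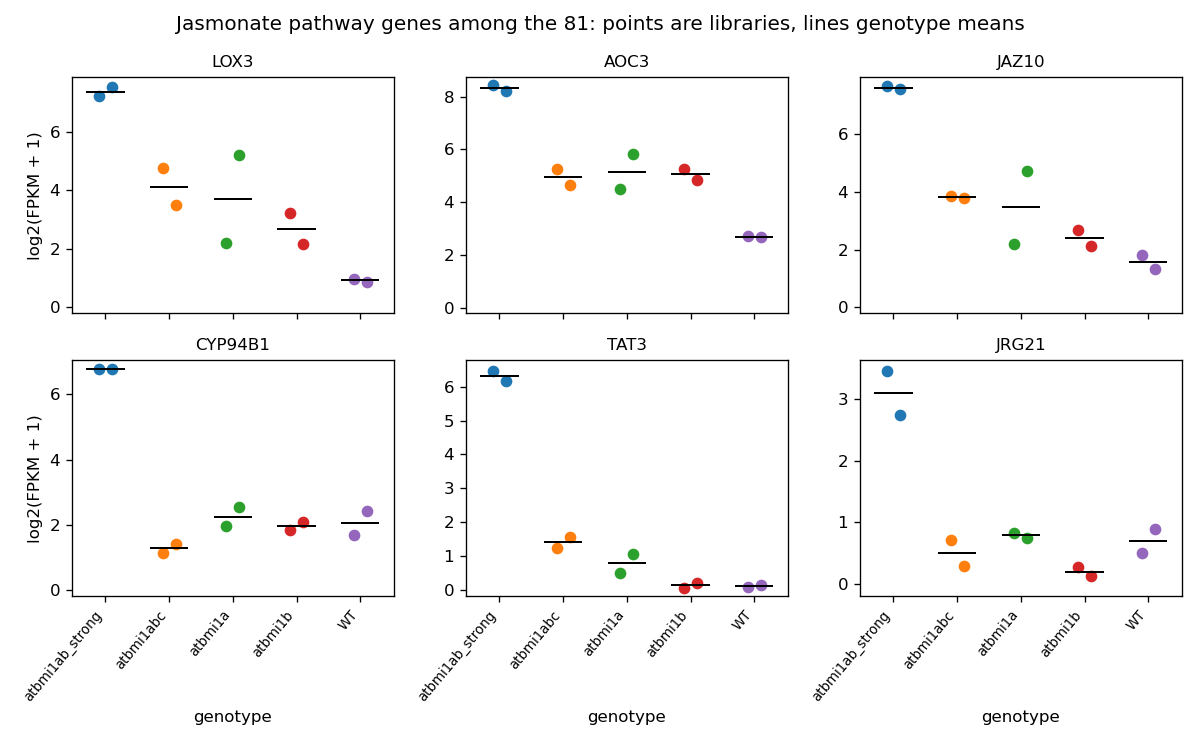
Level of LOX3, AOC3, JAZ10, CYP94B1, TAT3 and JRG21 as log2(FPKM + 1) on the vertical axis, by genotype from atbmi1ab_strong on the left to WT on the right. Points are libraries and lines are genotype means. The gap between the atbmi1a points of LOX3 and JAZ10 stands for 3.62 and 35.8 FPKM and for 3.62 and 25.3 FPKM.

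The rest of the pathway was followed in a list of 41 genes, which was drawn up from textbook knowledge after the values of the 81 genes had been seen and holds 6 of them. The highest genotype mean was that of atbmi1ab_strong for 31 of the 41 genes, and for 25 of the 35 that the rule had not chosen, where it is so for 17.5% of the tested loci. Both atbmi1ab_strong libraries were above all 8 others for 28 of the 41 genes and 22 of the 35, beside the 11.4% of tested loci given above. Leaving out the genes that the rule had chosen, the highest mean was in atbmi1ab_strong for 11 of 12 synthesis genes, 8 of 11 JAZ genes, 3 of 3 turnover genes, 2 of 5 receptor and signalling genes, and 1 of 4 response genes. The atbmi1abc mean was below the WT mean for 27 of the 41 genes and for 25 of the 35, where it is so for 50% of the tested loci. OPR3, the reductase of the peroxisomal steps, was listed at 195 and 229 FPKM in atbmi1ab_strong, 3.5 and 6.32 in atbmi1abc, 13.5 and 57.7 in atbmi1a, 20.4 and 16.3 in atbmi1b, and 15.5 and 13.8 in WT. AOS, the allene oxide synthase, was listed at 221 and 184 FPKM in atbmi1ab_strong, 17.6 and 15.2 in atbmi1abc, 37.7 and 71.7 in atbmi1a, 47.2 and 40.4 in atbmi1b, and 23.5 and 31.2 in WT. Both were highest in atbmi1ab_strong and lowest in atbmi1abc, without overlap of these groups.

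Among the repressors, JAZ1 was listed at 320 and 267 FPKM in atbmi1ab_strong, 101 and 31.9 in atbmi1abc, 33.5 and 131 in atbmi1a, 95.7 and 63.6 in atbmi1b, and 11.6 and 10.3 in WT. JAZ7 was listed at 64.0 and 62.7 FPKM in atbmi1ab_strong, 0.141 and 0.356 in atbmi1abc, 2.69 and 19.1 in atbmi1a, 5.55 and 3.34 in atbmi1b, and 0.145 and 0.729 in WT. JAZ9, JAZ11 and JAZ12 did not have their highest mean in atbmi1ab_strong. CYP94C1, which oxidizes the conjugate a step further than CYP94B1 and CYP94B3, was listed at 76.5 and 116 FPKM in atbmi1ab_strong, 17.8 and 13.8 in atbmi1abc, at most 4.14 in the single mutants, and 0.8 and 0.977 in WT. COI1, the receptor, was listed at 12.5 and 12 FPKM in atbmi1ab_strong, below its 20.2 and 23.0 in WT. MYC2, the main transcription factor of the pathway, had 78.7 and 67.5 FPKM in atbmi1ab_strong, 48.5 and 9.11 in atbmi1abc, 36.4 and 104 in atbmi1a, 63.4 and 52.1 in atbmi1b, and 16.6 and 18.8 in WT, so that its mutant groups overlapped.

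VSP1, LOX2 and VSP2, which are tied to leaves, had other patterns. VSP1, a vegetative storage protein of leaves and flowers, was listed at 2.71 and 1.32 FPKM in atbmi1ab_strong, 0 and 0 in atbmi1abc, 17.3 and 11.7 in atbmi1a, 12.3 and 9.98 in atbmi1b, and 10.1 and 19.9 in WT. LOX2, an abundant leaf lipoxygenase, had 12 and 15.7 FPKM in atbmi1ab_strong, 10.2 and 17.1 in atbmi1abc, its highest values, 38.7 and 33.2, in atbmi1a, 18.3 and 14.2 in atbmi1b, and 16.7 and 8.15 in WT. The atbmi1ab_strong libraries of VSP1 were below both WT libraries, and those of LOX2 overlapped the WT range. VSP2, a close relative of VSP1, had 4.63 and 2.22 FPKM in atbmi1ab_strong and 1.47 and 2.38 in WT, which also overlap. CLH1, another response gene of the list, went the other way. It had 23.6 and 21.1 FPKM in atbmi1ab_strong and 5.32 to 16.2 in the other libraries. Leaf photosynthesis transcripts were low in atbmi1ab_strong and atbmi1abc as given above; the part of leaf tissue in these values was not tested.

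**Figure D3:**
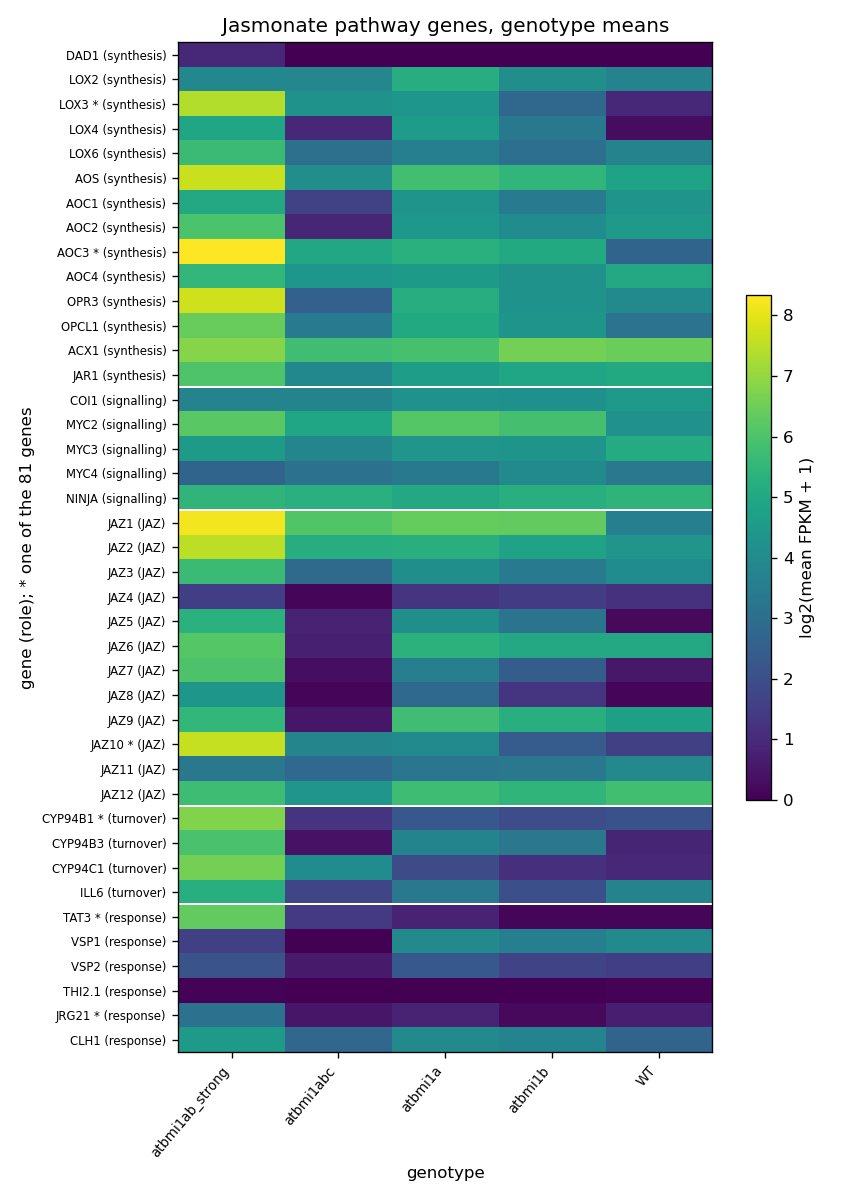
Genotype means of the 41 jasmonate pathway genes as log2(mean FPKM + 1), with genes in rows grouped by role, the 6 chosen genes marked by an asterisk, and genotypes in columns from atbmi1ab_strong to WT. The atbmi1ab_strong column is the highest for 31 of the 41 genes, and COI1, VSP1 and LOX2 are among those for which it is not.

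A family of oxygenases that use iron and oxoglutarate is named in the product of 4 of the 81 genes, and of 0.421% of the tested loci. JRG21, described above, belongs to it too, under another product name. AT2G38240 had the highest ratio of all, with 162 and 105 FPKM in atbmi1ab_strong, 1.04 and 0.690 in atbmi1abc, 0.174 and 0.467 in atbmi1a, 0.106 and 0.422 in atbmi1b, and 0.0628 and 0 in WT. AT5G05600 was listed at 171 and 150 FPKM in atbmi1ab_strong, 0.755 and 1.16 in atbmi1abc, 9.27 and 16.2 in atbmi1a, 8.63 and 9.22 in atbmi1b, and 6.68 and 8.60 in WT. Both belong, with JRG21, to a clade known to hydroxylate jasmonic acid into an inactive form. The list of 41 jasmonate genes counts JRG21 under response, not turnover. AT2G38240 and AT5G05600 are neither in that list nor among the 6 genes counted as the jasmonate pathway. Relative to WT they differed in atbmi1abc, where AT2G38240 was above both WT libraries and AT5G05600 below both. AT4G10500, whose enzyme hydroxylates salicylic acid, had 13.3 and 16.9 FPKM in atbmi1ab_strong and at most 0.812 elsewhere. AT1G06620 was present throughout, with 85.9 and 94.1 FPKM in atbmi1ab_strong and 6.99 to 12.6 in the other libraries.

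Other enzymes of specialised metabolism made up 11 of the 81 genes, with a median over the genes of 13.3 FPKM in atbmi1ab_strong and at most 0.477 in the other genotypes. DIR5, a dirigent-like protein of the family that steers lignan coupling, was listed at 57.8 and 48.6 FPKM in atbmi1ab_strong, at 0 in both libraries of atbmi1abc and of WT, and at up to 0.249 in the single mutants. FAMT, a farnesoic acid methyltransferase, had 81.7 and 55.4 FPKM in atbmi1ab_strong, 0 and 0.168 in atbmi1abc, 0.638 and 4.81 in atbmi1a, 0.405 and 0.0515 in atbmi1b, and 0.0689 and 0 in WT. TPS04, a terpene synthase that makes the precursor of a volatile released after herbivory, had 10.9 and 8.37 FPKM in atbmi1ab_strong and at most 0.120 in any other library. UGT76E1, a glucosyltransferase, had 25.8 and 20.4 FPKM in atbmi1ab_strong and at most 0.484 elsewhere, and its locus overlaps a gene on the other strand. The glycosyltransferases AT3G22250 and AT2G36780 were lower, at means of 13.3 ± 3.08 and 5.01 ± 0.403 FPKM in atbmi1ab_strong (SD, n = 2). AT1G30760, a berberine bridge enzyme family protein, was the member of this group with the highest level in both atbmi1ab_strong, 85.4 and 70.6 FPKM, and WT, 5.22 and 3.84 FPKM.

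The annotation notes name defence for 11 of the 80 genes that could be matched, or 13.8%, against 2.32% of the tested loci, and jasmonic acid or wounding for 6 of them, or 7.5%, against 0.891%. Salt stress was named for 6.25% of the matched genes against 1.33%, oxidation reduction for 8.75% against 2.5%, and salicylic acid for 2.5% against 0.409%. Abscisic acid, water deprivation and chitin were each named for 1.25%, against 0.901%, 0.713% and 0.424%. All these words were searched after the values had been seen. PBS3, an amino acid conjugating enzyme needed for salicylic acid to build up after infection, was listed at 11.3 and 5.95 FPKM in atbmi1ab_strong, 0.356 and 1.09 in atbmi1abc, 0.0375 and 0.302 in atbmi1a, 0.376 and 0.394 in atbmi1b, and 0.0812 and 0 in WT. PNP-A, a secreted natriuretic peptide, had 42.8 and 16.8 FPKM in atbmi1ab_strong and 0.235 to 2.01 in the other libraries. RLP6, a receptor-like protein, was low but close between libraries, with 5.35 and 5.49 FPKM in atbmi1ab_strong and 0.684 and 0.666 in atbmi1abc, against 0.156 and 0.184 in WT. The 11 immune and peptide genes had levels of 5.15 to 36.7 FPKM in atbmi1ab_strong, and none of their genotype means elsewhere was above 3.09 FPKM. LCR35, a cysteine-rich peptide gene, was listed at 7.08 and 3.21 FPKM in atbmi1ab_strong and at 0 in every other library.

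Transcription factors gave 10 of the 81 genes, and 6.17% of the tested loci are named as such. RAP2.6, an ethylene response factor known to respond to abscisic acid, jasmonate and salt, was the highest, with 236 and 198 FPKM in atbmi1ab_strong, 0.870 and 2.79 in atbmi1abc, 5.79 and 7.10 in atbmi1a, 8.63 and 9.54 in atbmi1b, and 6.34 and 6.99 in WT. ABR1, a repressor of abscisic acid responses in the same family, was listed at 75.7 and 66.0 FPKM in atbmi1ab_strong, 1.21 and 1.90 in atbmi1abc, 0.481 and 2.70 in atbmi1a, 0.875 and 0.893 in atbmi1b, and 0.572 and 0.629 in WT. The bHLH gene AT1G62975 had 108 and 110 FPKM in atbmi1ab_strong, 0.390 and 0.392 in atbmi1abc, 12.1 and 9.68 in atbmi1a, 8.47 and 13.5 in atbmi1b, and 7.86 and 5.58 in WT. RAP2.6 and AT1G62975 thus stood on opposite sides of WT in the double and the triple mutant. The homeodomain-like gene AT5G01380 was listed at 55.7 and 43.0 FPKM in atbmi1ab_strong, 4.82 and 4.16 in atbmi1abc, 1.11 and 2.68 in atbmi1a, 0.899 and 0.449 in atbmi1b, and 0.334 and 0.135 in WT. The bHLH genes AT2G22760 and AT4G37850 and the zinc finger gene AT3G53600 had means of 20 ± 3.67, 10.9 ± 2.71 and 17.2 ± 3.30 FPKM in atbmi1ab_strong (SD, n = 2) and were listed at 0 in both atbmi1abc libraries. AT2G47950, annotated as a myelin transcription factor-like protein, NAC096 and WRKY38 had means of 34.7 ± 0.511, 12.7 ± 4.39 and 6.28 ± 0.513 FPKM in atbmi1ab_strong (SD, n = 2). WRKY38 is known as a negative regulator of basal defence.

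Cold and dehydration genes included LTI30, a dehydrin that protects membranes in the cold, which had the second highest level of the 81 genes. LTI30 was listed at 950 and 765 FPKM in atbmi1ab_strong, 53.8 and 93.6 in atbmi1abc, 34.7 and 51.1 in atbmi1a, 35.0 and 32.1 in atbmi1b, and 18.8 and 20.8 in WT. GolS3, a galactinol synthase of raffinose synthesis, had 13.1 and 10.0 FPKM in atbmi1ab_strong and 0.126 and 0 in atbmi1abc, against 0.713 and 0.588 in WT. The late embryogenesis abundant gene AT5G53820 had 8.54 and 13.4 FPKM in atbmi1ab_strong and at most 1.18 elsewhere. MAPKKK18, a kinase of abscisic acid signalling that was counted with the signalling genes, had 13.8 and 12.7 FPKM in atbmi1ab_strong and 0.537 to 1.88 in the other libraries. For seed or embryo, only the part of the notes that lists biological processes was searched. It named them for 0 of the 80 matched genes, against 1.57% of the tested loci. Product names were not part of that search, and those of AT4G22610 and AT5G53820 name seed storage and late embryogenesis. The full notes named cold for 0 genes, against 1.05%. None of 18 seed storage, 15 late embryogenesis and 19 embryo regulator genes that were listed as markers was among the 81, although all 3 lists were summed far above WT in atbmi1ab_strong. For late embryogenesis the sum was 3961 and 5137 FPKM in atbmi1ab_strong, 4360 and 5312 in atbmi1abc, and 15.81 and 18.33 in WT, so that the triple mutant was here at the level of the double.

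The 250 bases before each gene's annotated start were searched on both strands for 8 short motifs, in 80 of the 81 genes and in 26167 genes in all. The G-box CACGTG was present in 11 of the 80 windows, or 13.8%, against 6.53% of all windows. The abscisic acid response element ACGTGNC was present in 16, or 20%, against 8.63%, and the motifs can overlap, since both contain ACGTG. The RY core CATGCA (8.75% against 8.53%), the W-box TTGACC (12.5% against 12.2%) and the GCC box GCCGCC (2.5% against 1.83%) were at about the share of all windows. The telobox AAACCCTAA and the repeat GAGAGAGA were each in 1 window, or 1.25%, against 2.58% and 4.84%, and the heat shock element was in 0, against 0.371%. None of the 6 jasmonate pathway genes had a G-box or an abscisic acid response element in this window. In 5 of the 81 genes both motifs were found. Of these, 4 have no other annotated gene in the window, and their windows are printed here from the RefSeq genome TAIR10.1 because they show how the motifs lie. Capitals mark the motifs, and each sequence runs 5′ to 3′ towards the gene, which lies on the plus strand.
RAP2.6, chr1:16263555-16263804: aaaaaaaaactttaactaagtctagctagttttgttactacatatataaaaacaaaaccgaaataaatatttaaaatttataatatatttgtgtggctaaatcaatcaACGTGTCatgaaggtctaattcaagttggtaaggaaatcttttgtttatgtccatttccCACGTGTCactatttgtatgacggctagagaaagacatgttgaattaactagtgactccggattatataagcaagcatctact
MAPKKK18, chr1:1469291-1469540: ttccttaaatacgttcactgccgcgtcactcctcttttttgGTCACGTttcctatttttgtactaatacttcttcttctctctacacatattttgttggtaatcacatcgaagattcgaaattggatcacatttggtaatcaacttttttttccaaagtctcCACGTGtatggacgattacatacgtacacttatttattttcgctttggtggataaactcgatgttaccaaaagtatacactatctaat
GolS3, chr1:3019389-3019638: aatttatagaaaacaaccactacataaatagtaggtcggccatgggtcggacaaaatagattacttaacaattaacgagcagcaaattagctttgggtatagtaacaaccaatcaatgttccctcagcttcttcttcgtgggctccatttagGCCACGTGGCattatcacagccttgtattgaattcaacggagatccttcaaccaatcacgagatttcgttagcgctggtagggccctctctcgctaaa
AT5G53820, chr5:21853098-21853347: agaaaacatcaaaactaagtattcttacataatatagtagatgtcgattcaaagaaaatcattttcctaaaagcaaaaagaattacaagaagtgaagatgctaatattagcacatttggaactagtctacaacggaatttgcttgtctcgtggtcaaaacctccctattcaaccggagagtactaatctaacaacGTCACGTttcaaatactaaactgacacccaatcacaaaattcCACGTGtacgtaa

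The G-box begins 83 bases before the gene start in RAP2.6, 88 in MAPKKK18, 96 in GolS3 and 13 in AT5G53820. In RAP2.6 and GolS3 it overlaps an abscisic acid response element, and in GolS3 that element is matched on both strands. In MAPKKK18 and AT5G53820 the element lies apart from the G-box, 209 and 55 bases before the start. A match is a description of the letters, and no factor's binding was measured.

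Redox enzymes included a neighbouring pair on chromosome 4, MSRB7 and MSRB8, which repair oxidized methionine. MSRB7 was listed at 358 and 434 FPKM in atbmi1ab_strong, 10.9 and 11.4 in atbmi1abc, 25.0 and 35.2 in atbmi1a, 22.2 and 17.2 in atbmi1b, and 26.0 and 22.1 in WT. MSRB8 had 68.0 and 51.4 FPKM in atbmi1ab_strong, 0 and 0.670 in atbmi1abc, and 0.136 to 3.41 in the other libraries. Since they are neighbouring members of one family, reads may have been divided between them in the authors' estimates. GSTU6, a glutathione transferase of detoxification, had 238 and 213 FPKM in atbmi1ab_strong, 2.75 and 6.64 in atbmi1abc, 10.1 and 15.0 in atbmi1a, 13.7 and 17.2 in atbmi1b, and 6.55 and 5.80 in WT, and it overlaps a gene on the other strand. The peroxidases PA2 and AT5G39580 had means of 22.9 ± 0.0747 and 96.3 ± 42.1 FPKM in atbmi1ab_strong (SD, n = 2), and AT5G39580 differed between libraries, with 126 and 66.5 FPKM.

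The signalling genes included PSK2, the precursor of a sulfated peptide hormone, listed at 296 and 281 FPKM in atbmi1ab_strong, 35.5 and 24.9 in atbmi1abc, 3.84 and 17.6 in atbmi1a, 7.16 and 5.11 in atbmi1b, and 11.4 and 9.88 in WT. MAPKKK21, a kinase kinase kinase, had 36.2 and 35.9 FPKM in atbmi1ab_strong, 5.29 and 1.93 in atbmi1abc, 0.234 and 1.83 in atbmi1a, 0.106 and 0.0944 in atbmi1b, and 0.0632 and 0 in WT. In these genes atbmi1abc came next after atbmi1ab_strong. The lectin kinase AT1G70130, which was not counted in this group, had 9.24 and 7.87 FPKM in atbmi1ab_strong and at most 0.424 elsewhere.

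In metabolism and transport, PCK2, a phosphoenolpyruvate carboxykinase of gluconeogenesis, had 101 and 56.1 FPKM in atbmi1ab_strong and 0.757 to 2.53 in the other libraries. AT4G22610, annotated as a lipid-transfer or seed storage albumin family protein, was listed at 261 and 243 FPKM in atbmi1ab_strong, 1.37 and 1.23 in atbmi1abc, 4.47 and 12.5 in atbmi1a, 5.13 and 5.64 in atbmi1b, and 1.2 and 1.2 in WT. Its neighbour AT4G22620, a SAUR-like gene counted with the signalling genes, had 16.1 and 15.1 FPKM in atbmi1ab_strong and at most 1.02 elsewhere. MSS1, a sugar transporter of the major facilitator superfamily, had 71.0 and 52.4 FPKM in atbmi1ab_strong and 1.1 and 3.19 in atbmi1abc, against 7 and 6.65 in WT. AT1G51090, a heavy metal transport and detoxification protein, had 37.9 and 37.5 FPKM in atbmi1ab_strong and at most 1.54 elsewhere, and the major facilitator AT2G34350 had 16.2 and 10.2 FPKM in atbmi1ab_strong and at most 0.850 elsewhere. MIOX4, a myo-inositol oxygenase, had a mean of 23.7 ± 11.3 FPKM in atbmi1ab_strong (SD, n = 2) and was listed at 0 in both atbmi1abc libraries. AT5G62360, a pectin methylesterase inhibitor family protein of the cell wall, was counted with the other annotated proteins. It was listed at 86.9 and 47.7 FPKM in atbmi1ab_strong, 0.222 and 0.419 in atbmi1abc, 0.846 and 2.27 in atbmi1a, 0.286 and 0.340 in atbmi1b, and 2.05 and 1.15 in WT.

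Among genes with no known product, AT5G03204 had the highest level of all, at 819 and 1740 FPKM in atbmi1ab_strong, 257 and 0 in atbmi1abc, and 0 in the 6 other libraries. It is annotated with a length of 464 bases and is 1 of 7 of the 81 genes under 700 bases, where an FPKM value is less certain. AT4G22592, which is not in the RefSeq table used here, was listed at 173 and 146 FPKM in atbmi1ab_strong, 12.5 and 16.2 in atbmi1abc, 6.89 and 19.5 in atbmi1a, 18.9 and 14.8 in atbmi1b, and 4.14 and 5.29 in WT. AT5G12340 had 31.0 and 21.9 FPKM in atbmi1ab_strong, 0.145 and 0.183 in atbmi1abc, 1.94 and 3.61 in atbmi1a, 2.48 and 2.99 in atbmi1b, and 0.149 and 0.450 in WT.

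On the chromosomes the 80 placed genes were spread as 18, 12, 12, 12 and 26 over chromosomes 1 to 5. Of all placed loci, 26.1%, 15.6%, 19.9%, 15.1% and 23.2% lie on these chromosomes. Of the 80 genes, 4 stood next to another of the set. The set makes up 0.299% of all loci, which is not the share of loci with such a neighbour. Their median gene length was 1852 bases, against 2368 for tested loci. In 8 of them, UGT76E1, ABR1, AT2G47950, GCL1, AT5G25260, GSTU6, JAZ10 and AT1G14780, the gene overlaps an annotated gene on the other strand, and the sources used here do not state whether the authors' estimates used strand.

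The tests below used the genotypes other than atbmi1ab_strong, each against WT, since contrasts with atbmi1ab_strong had chosen the genes. They share the WT libraries, and the rule also caps every mean that enters them. A single limma fit covered all 19460 loci that averaged at least 1 FPKM across all 10 libraries, on log2(FPKM + 1), and p-values were adjusted over all of them by Benjamini and Hochberg. All 81 genes passed that filter; 33 of them averaged at least 1 FPKM over the other 8 libraries as well, and 48 did not and passed through atbmi1ab_strong. Fold changes on this scale understate the change of low genes, and those 48 genes averaged under 1 FPKM in the libraries compared. The shares called below therefore cannot show whether the 81 genes changed less than other loci. Calls were not counted separately for the 33 genes. In atbmi1abc, 14 genes were higher than WT (17.3%) and 11 lower (13.6%), where 36.3% of all tested loci were called higher and 37.7% lower. The median log2 fold change of the 81 genes was 0.02, beside 0.00 for all tested loci. In the libraries labelled atbmi1a, 12 genes were higher than WT (14.8%) and 1 lower (1.23%), where 17% of all tested loci were called higher and 18.4% lower. The median was 0.30, beside 0.02 for all tested loci. In atbmi1b, 6 genes were higher than WT (7.41%) and 2 lower (2.47%), where 21.3% of all tested loci were called higher and 24.1% lower. The median was 0.11, beside −0.01. These medians depended on the scale. With 0.1 FPKM added in place of 1, they were 0.00 in atbmi1abc, 0.80 in atbmi1a and 0.40 in atbmi1b. All tested loci then had medians of −0.01, 0.02 and −0.02. Under quantile normalization the medians of the 81 genes were 0.20, 0.13 and 0.05, beside 0.06, −0.03 and −0.03. No gene called higher in one of these comparisons was called lower in another, and 48 of the 81 genes were called in none. The shares of all tested loci called in opposite directions, in none or in all 3 comparisons were not counted.

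Several of these counts rested on single libraries or on the scaling. For atbmi1abc, quantile normalization gave 19 genes higher and 6 lower, and leaving out WT replicate 1 gave 6 lower. For atbmi1a, leaving out its replicate 1 gave 24 genes higher, its replicate 2 gave 7, WT replicate 1 gave 5 and WT replicate 2 gave 4; the count of genes lower was 3 without atbmi1a replicate 2 and 0 without WT replicate 1. For atbmi1b, the count of genes lower was 0 without its replicate 1 or WT replicate 1 and 1 without WT replicate 2.

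**Figure D4:**
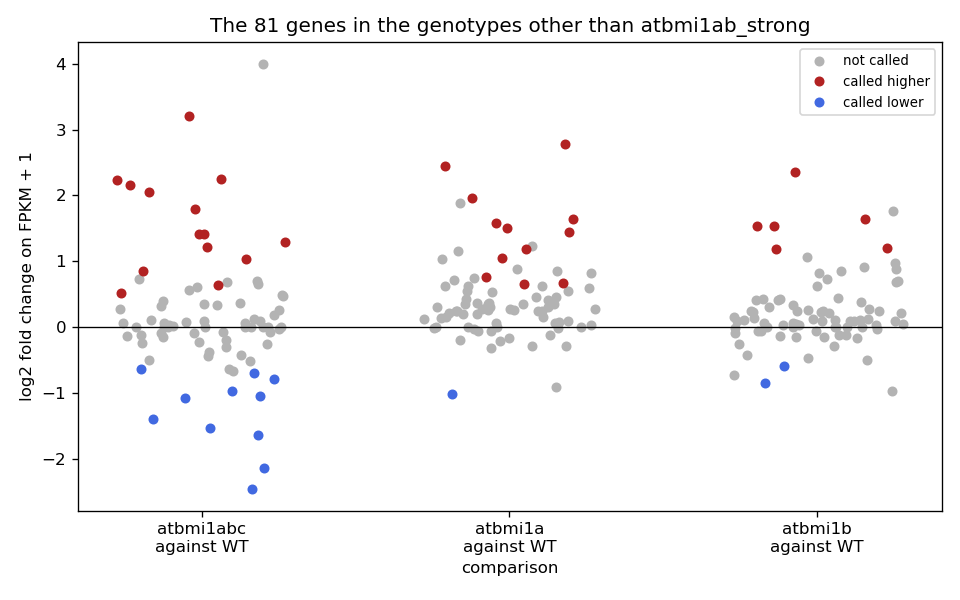
Log2 fold change against WT, on the log2(FPKM + 1) scale, of the 81 genes in atbmi1abc, atbmi1a and atbmi1b. Each point is a gene. Red points were called higher and blue points lower at an adjusted p under 0.05, and grey points were not called. With 1 FPKM added, as drawn here, most genes lie near 0, with medians of 0.02, 0.30 and 0.11. With 0.1 FPKM added instead, the medians were 0.00, 0.80 and 0.40. Under quantile normalization they were 0.20, 0.13 and 0.05.

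In atbmi1abc the jasmonate genes LOX3, AOC3, JAZ10 and TAT3 rose over WT, while CYP94B1 fell and JRG21 was not called (−0.19, adjusted p = 0.532). The log2 fold change was 3.21 ± 0.88 for LOX3 (SE, adjusted p = 0.0106), 2.25 ± 0.40 for AOC3 (adjusted p = 0.0011), 2.23 ± 0.67 for JAZ10 (adjusted p = 0.0164) and 1.29 ± 0.21 for TAT3 (adjusted p = 0.000768). TAT3 and JRG21 averaged under 1 FPKM over the other 8 libraries, so they entered the test only through atbmi1ab_strong, which had chosen them. The fall of CYP94B1 was −0.78 ± 0.27 (adjusted p = 0.0308). Leaving out 1 library ended the call of LOX3 (adjusted p = 0.068 without atbmi1abc replicate 1), of JAZ10 (adjusted p of 0.0542 to 0.0859 without either atbmi1abc library or WT replicate 2) and of CYP94B1 (adjusted p of 0.139 and 0.202 without atbmi1abc replicate 1 or WT replicate 2). The fall of CYP94B1 was also not called under quantile normalization (−0.45, adjusted p = 0.176), with no filter (adjusted p = 0.0719) or with only the 2 genotypes compared (adjusted p = 0.0678), nor was the rise of JAZ10 with no filter (adjusted p = 0.0507). AOC3 also rose in atbmi1a, by 2.45 ± 0.40 (adjusted p = 0.00349), and in atbmi1b, by 2.36 ± 0.40 (adjusted p = 0.00231), and was the only 1 of the 81 genes called higher in all 3 comparisons. LOX3 rose by 2.78 ± 0.88 in atbmi1a (adjusted p = 0.0417), a call that was lost without atbmi1a replicate 2 (1.28, adjusted p = 0.115) and without either WT library (adjusted p of 0.128 and 0.147), and likewise under quantile normalization (adjusted p = 0.0523), with no filter (adjusted p = 0.109) and with only the 2 genotypes compared (adjusted p = 0.137).

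Several other genes moved in opposite directions relative to WT in atbmi1abc. LTI30 rose by 1.79 ± 0.27 on the log2 scale (adjusted p = 0.000427), AT5G01380 by 2.16 ± 0.28 (adjusted p = 0.000177) and MAPKKK21 by 2.06 ± 0.43 (adjusted p = 0.00277). AT1G62975 changed by −2.46 ± 0.22 (adjusted p = 2.26e-05), AT5G05600 by −2.14 ± 0.24 (adjusted p = 8.07e-05), RAP2.6 by −1.53 ± 0.29 (adjusted p = 0.00166) and MSRB7 by −1.04 ± 0.19 (adjusted p = 0.00129). AT1G62975, AT5G05600, RAP2.6 and MSRB7 were thus above WT in both atbmi1ab_strong libraries and below it in atbmi1abc. AT1G30760 fell in all 3 comparisons, by −1.63 ± 0.21 in atbmi1abc (adjusted p = 0.000182), −1.01 ± 0.21 in atbmi1a (adjusted p = 0.00893) and −0.85 ± 0.21 in atbmi1b (adjusted p = 0.0125), although its level in atbmi1ab_strong was well above that in WT. The call in atbmi1a was lost without WT replicate 1 (adjusted p = 0.057), and that in atbmi1b without atbmi1b replicate 1 or WT replicate 1 (adjusted p of 0.0714 and 0.0804). In both single mutants AT5G12340 rose, by 1.51 ± 0.25 in atbmi1a (adjusted p = 0.00392) and 1.53 ± 0.25 in atbmi1b (adjusted p = 0.00212), and so did AT4G22610, by 1.96 ± 0.35 (adjusted p = 0.00469) and 1.53 ± 0.35 (adjusted p = 0.00849). The call of AT4G22610 in atbmi1b was lost without atbmi1b replicate 2 (adjusted p = 0.0501), and that in atbmi1a with only the 2 genotypes compared (adjusted p = 0.0619).

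Among the other genotypes, atbmi1a had the highest mean for 41 of the 81 genes, atbmi1abc for 18, atbmi1b for 13 and WT for 6, and 3 genes were listed at 0 in all of them. A single library accounted for much of this: replicate 2 of atbmi1a was the highest of the 8 other libraries for 37 of the 81 genes, where it is so for 10% of the tested loci. It was above replicate 1 for 62 of the 81 genes, against 41.6% of the tested loci, and for 30 of the 41 jasmonate pathway genes. The median level of the 81 genes was 0.649 FPKM in replicate 1 and 1.19 in replicate 2 of atbmi1a, and 0.320 and 0.305 in the WT libraries. Fewer genes met the rule without atbmi1a replicate 1, 68, and more without atbmi1a replicate 2, 94. Relative depth, estimated from the spacing of the lowest values, was 1.09 of that of WT replicate 1 in replicate 1 of atbmi1a and 1.36 in replicate 2. The part of depth, and of the seed storage transcripts in replicate 1, in these values was not tested.

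Of the 81 genes, 11 were listed at 0 in both atbmi1abc libraries, or 13.6%, against 0.431% of the eligible loci with at least 5 FPKM in atbmi1ab_strong, and the rule itself favours such genes. The highest of them in atbmi1ab_strong were DIR5, AT3G13240, MIOX4, AT2G22760 and AT3G53600. No fold is given against a group listed at 0. For genes measured in both, the atbmi1ab_strong mean of LOX3 was 9.13 times that of atbmi1abc and 185 times that of WT, whereas that of CYP94B1 was 76.1 times that of atbmi1abc and 33.0 times that of WT. For some of the 81 genes the triple mutant thus lay between the double mutant and WT, and for others at or below WT. The atbmi1abc mean was above the WT mean for 42 genes and below it for 32. Among all tested loci it was below for 50%.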

How the data were processed

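RNA of seedlings was sequenced in 10 libraries. The tools named in the submitters' processing notes are TopHat, Cufflinks, Cuffdiff and FastQC, with the build TAIR10; the sources used here state no versions or options. The authors deposited 1 file per library with FPKM for 27086 loci, of which 270 are merged entries. The unit was read from the tools and the values. The rule was applied to the means over libraries of the deposited FPKM. Of the 27086 loci, 26177 matched the RefSeq table of TAIR10.1, which gave names, positions and upstream sequence. Two-sided tests came from limma 3.58.1 in R 4.3.3 (empirical Bayes with a mean-variance trend) on log2(FPKM + 1), with 1 coefficient per genotype and 5 residual degrees of freedom, over loci that averaged at least 1 FPKM, called at an adjusted p under 0.05. Since the labels do not say that replicates were separate plants, p-values reflect the spread between libraries only, possibly technical. The fit was tested on simulated data.

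The genes, lists and tests were chosen with earlier results of these data known. Genes were named by rule: the 12 highest in level and the 12 highest in ratio, members of 12 marker lists (154 genes, of which only TAT3, under defence, is among the 81), transcription factors, the 3 on each side of the threshold, the 5 smallest adjusted p per comparison, up to 3 per product family with at least 3 members, and 5 listed at 0 in atbmi1abc. The jasmonate list, the groups by role, the oxygenase and terpene synthase families, the annotation words and the further genes named for them were chosen after the values were seen. Alternatives were other scalings, a pseudocount of 0.1, other filters, the replicate block, only the 2 genotypes compared, removal of organelle genes, other limits in the rule, and leaving out each library. Figures were drawn with matplotlib 3.10.9 in Python 3.11.15.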

Additional observations from a re-analysis of the deposited data

How the results depend on the processing

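The 3 comparisons with WT kept their counts within 1.5 times under most alternatives. With quantile normalization, 6 genes were called lower in atbmi1abc in place of 11, and 6 higher in atbmi1a in place of 12. With a pseudocount of 0.1, 12 genes were called higher in atbmi1b in place of 6. With only the 2 genotypes compared in the fit, 4 were called higher in atbmi1a. Of all tested loci, 7.02% were then called higher in atbmi1a, in place of 17%. In atbmi1b that fit called 15 higher, and 4 lower in place of 2. The cause was not tested. Leaving out each library in turn gave 10 to 12 genes higher and 6 to 10 lower in atbmi1abc, 4 to 24 higher and 0 to 3 lower in atbmi1a, and 4 to 6 higher and 0 to 2 lower in atbmi1b; the lone library is then assumed to vary like the other genotypes. For the 18 genes followed singly, 642 of 699 values kept their direction and side of the threshold, 13 newly passed it, 44 no longer passed it and 0 reversed.

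The number of loci that meet the rule was 50 with a ratio of 12, and 49 when each atbmi1ab_strong library had to be at least 8 times the highest other library. It was 63 to 112 under the other limits and scaling tried, and 68 to 94 without each library in turn; without atbmi1ab_strong replicate 1 it was 78, of which 72 are among the 81.

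Replicate numbers did not pair the samples: deviations of same-numbered libraries correlated from −0.23 to 0.12 over 10 pairs of genotypes, with 2 over 0.1. With the replicate number as a block, 13 genes were called higher and 10 lower in atbmi1abc, 9 and 1 in atbmi1a, and 7 and 2 in atbmi1b. The block ended the call of LOX3 in atbmi1a (2.78, adjusted p = 0.062). Without counts, depth sets no interval here, and values near 0 cannot be told from failed estimates.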
